A study of Homo sapiens with 2 samples.

Results

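Mediator is the large protein complex that passes signals from DNA-bound transcription factors to RNA polymerase II at promoters. Its subunits are arranged in a head, a middle and a tail held together by the scaffold subunit MED14. A detachable kinase module is tied to the core by MED13 or its relative MED13L. N6-methyladenosine (m6A) is a methylated adenosine in messenger RNA that influences how long a transcript lasts and how it is translated. It is known for lying near stop codons and in unusually long internal exons. The transcripts described here are those of the Mediator subunits, chosen as every gene name of the deposited table that is MED followed by a number, with or without a closing L. There were 30 such genes among 47352. The rule goes by name alone.

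The study mapped m6A in GM12878, an established human lymphoblastoid cell line made by transforming B cells of 1 donor with Epstein-Barr virus. RNA was broken into fragments, and fragments recovered with an m6A antibody (the IP) were sequenced next to unselected fragments (the input). Per the labels, both libraries came from cells grown in RPMI medium with 15% serum, no treatment of the living cells is named, and the libraries keep the strand. The source field of both labels reads mouse embryonic stem cells, which goes against their organism and cell line. In the input the 6 B cell markers examined had scaled coverages of 9.93 to 775, and the 5 pluripotency markers 0.00214 to 0.153, so the coverage goes with the B cell line. Among markers of other blood cells only CD3E at 1.52 and ITGAM at 1.12 passed a coverage of 1.

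There was 1 library of each kind, holding coverage that corresponds to 50327050 reads in the input and 56926362 in the IP on 1 transcript per gene. No difference below therefore has a replicate check, and no p-value is given. Intervals cover counting error at 95% only, and copies of 1 molecule made by PCR are not independent reads. Coverage is listed in windows that start every 50 nt along exons and overlap: in the input, lone reads were seen spread over 2 consecutive windows 4721 times and over 3 windows 9761 times. A region of only 2 windows can therefore rest largely on the same reads. The authors' score of a window is the log2 ratio of IP to input after each has been divided by its median over the gene, with 1 added to each number. A score of 2 is thus a 4-fold enrichment of a window over its own gene in the numbers after this addition. Where coverage is low the added 1 weighs more, and the enrichment in coverage itself can differ from 4-fold. A region is a run of at least 2 consecutive windows at 2 or more, its peak is the window of highest score, and the gene-level score is the highest mean of 2 consecutive windows. Ratios at a peak are thus taken where the score was highest, which favours high ratios, and their intervals do not allow for that choice.

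Nearly all Mediator transcripts were present in the input at ordinary levels. Input coverage averaged 1 or more over the transcript in 29 of the 30, which are called measured. Their median was 3.85, beside 3.75 over all 10756 measured genes. Coverage is per base, so levels can be set side by side between genes. The highest levels belonged to the tail subunits MED15 at 12.4 and MED25 at 10.3, and the lowest to MED31 at 1.06, MED23 at 1.48 and MED20 at 1.51. The exception was MED12L, a relative of MED12, with 0.00433 in the input and 0.00262 in the IP. Its highest window held 0 input reads and 1 IP read, so nothing can be said of methylation on it.

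A region was found in 17 of the 29 measured genes, or 58.6% (exact interval 38.9 to 76.5). The share over all measured genes was 44.2%, which lies within that interval. The excess was not kept when 5 in place of 1 was added to the coverages, where 9 of 29 members had a region beside 33.9% of all measured genes, nor at a threshold of 3 or with runs of 4 windows. The median gene-level score was 2.21, beside 1.81 over all measured genes, and 19 of the 29 members lay above the latter. Scores ran from 0.61 in MED4 to 5.73 in MED18. A score above 4 was reached by 5 of the 29 (MED18, MED13, MED20, MED26 and MED13L), beside 13.1% of all measured genes. Enriched windows made up 6.27% of the 2104 windows of measured members, beside 5.75% of all windows of measured genes. These 132 windows were unevenly spread, with 93 of them in MED13, MED13L, MED26, MED18 and MED1.

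**Figure D1:**
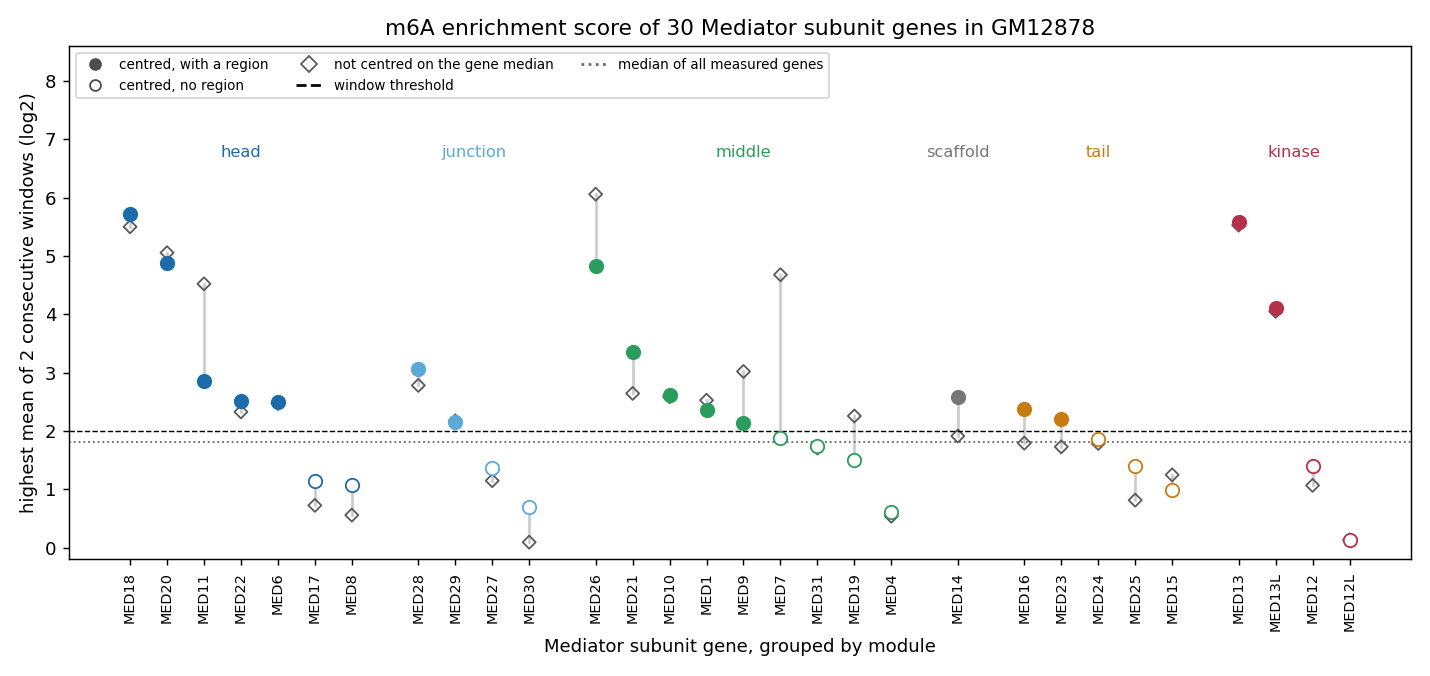
Gene-level score (log2) of the 30 Mediator subunit genes, grouped by module and ordered by score, from 1 IP and 1 input library. Filled circles have an enriched region and open circles do not, diamonds give the same score without division by the gene medians, the dashed line is the window threshold of 2 and the dotted line the median of all measured genes, 1.81. MED18 and MED13 stand highest with the division, and MED7 moves from 1.88 to 4.68 without it.

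The head module contacts RNA polymerase II and the general factors. It held the highest score, and 5 of its 7 genes had a region, beside 44.2% of all measured genes. MED18 and MED20 encode partners that bind each other at the tip of the head. At the peak of MED18 the scaled coverage was 14.5 in the input and 727 in the IP, about 228 and 7302 reads. IP coverage was thus 50.3 times input coverage there (44.1 to 57.7), and the score was 5.78. The region of MED18 spanned 12 windows at the start of its terminal exon of 32 windows. IP coverage in that exon rose from 42.2 in window 1 to 727 in window 5 and fell to 71.4 in window 8. It rose again to 167 in window 10 and was 4.98 in window 12. Input in the same windows ran between 14.5 and 0.406.

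MED20 had a lower input, 3.04 at its peak against 143 in the IP, with a ratio of 47.0 (35.2 to 64.0) and a score of 4.99. Its region covered 7 windows of a terminal exon of 39. The input at this peak rests on 48 reads, so the ratio is less precise than that of MED18. The partners MED18 and MED20 were therefore both among the members above 4. MED11 and MED22 form another pair in the head. MED11 had 5.65 in the input and 153 in the IP at its peak, a ratio of 27.1 (21.9 to 34.0). Its score was only 2.86, because its median IP coverage was already 14.8 against an input median of 3.95. MED22 reached 5.61 and 35.2 at its peak (score 2.64).

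MED6 had 4.46 in the input at its peak, and 301 IP reads against 70 input reads, with a score of 2.53. The remaining head genes had no region. MED17, the central subunit of the head, scored 1.14, and MED8, which anchors the MED18 and MED20 pair, 1.07. Both had less mean coverage in the IP than in the input. For MED17 these means were 1.17 and 1.75, and for MED8 3.12 and 3.45.

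MED27, MED28, MED29 and MED30 join the head to the tail. MED28 had 19.1 in the input and 137 in the IP at its peak, with a score of 3.06 and, at 301 reads, the best covered input of any member's peak. Its ratio of 7.21 is accordingly narrow (6.35 to 8.18). MED29 passed the threshold barely, with 2 windows and a peak of 2.21 (4.93 against 26.7). MED27 at 1.36 and MED30 at 0.69 had no region. The highest window of MED30 held 0 input reads and 1 IP read, and its mean IP coverage, 2.25, was below its input of 3.85.

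The middle module transmits contacts through the complex and includes MED1, the subunit bound by nuclear receptors, and MED26, which recruits elongation factors. Of its 9 genes 5 had a region, beside 44.2% of all measured genes. MED26 carried 3 regions in 1 terminal exon of 56 windows. Their peaks had 3.52 in the input against 160 in the IP, 3.55 against 305, and 6.89 against 196. The middle peak had the largest ratio of any member's region, 85.9 (66.1 to 114), and a score of 4.85. IP coverage was highest in window 33, at 386 with 8.48 in the input. At the outer end of the same exon, in window 1, it was 0.603 with 1.34 in the input. Mean IP coverage of that exon was 67.4, beside 2.53 in the other exons of the gene, while mean input differed much less (4.64 and 2.97).

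MED1 also had 3 regions in 1 terminal exon, which at 129 windows was the longest exon of any measured member. All 3 were weak, with scores of 2.42, 2.11 and 2.43 and IP coverages of 31.0, 24.0 and 50.01 against inputs of 4.32, 4.16 and 7.39. MED21, which pairs with MED7 at the hinge of the middle module, had 5.23 in the input and 41.7 in the IP, with a score of 3.48. MED10 scored 2.62 at its peak, where it had 15.4 and 98.3. MED9 scored 2.21 at its peak on only 21 input reads (1.35 against 19.0), the fewest behind any member's region, and its ratio of 14.0 has a wide interval (9.04 to 23.5).

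The middle genes without a region were not alike. MED4 scored 0.61 and had less coverage in the IP than in the input on average (2.40 and 3.08). MED31 and MED19 scored 1.75 and 1.51. The gene medians of MED31 were only 0.0993 in the input and 0.0700 in the IP, so many of its windows were hardly covered. MED7 scored 1.88 although most of its terminal exon was strongly enriched. Its highest window had 2.74 in the input and 101 in the IP, a ratio of 37.1 (27.4 to 51.7). The gene median of the IP was 16.1 against 1.47 in the input, so that division by the median removed most of the difference. All 10 windows of measured members at a score of -2 or less were in MED7. They were the 8 windows of its other exon and the first and last windows of the terminal one. Over all windows of measured genes, 0.329% scored so low. Without the division MED7 had a region and a gene-level score of 4.68.

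The scaffold gene MED14 had 1 region of 3 windows, with 3.37 in the input and 18.2 in the IP at its peak and a score of 2.80. The tail, which receives activators, had a median gene-level score of 1.86, against 2.51 in the head and 2.14 in the middle, and regions in 2 of 5 genes. Both are near the values of all measured genes, 1.81 and 44.2%. MED16 peaked at 2.44 (5.06 against 20.9) and MED23 at 2.25 (1.98 against 9.17), each in a region of 2 windows. MED24 had a single window at 2.02 and so no region. MED25, a target of viral activators, and MED15 scored 1.40 and 0.98 despite the deepest input of all members. At the highest window of MED15, 101 input reads and 169 IP reads gave a ratio of 2.63 (2.04 to 3.40). The regions of MED14, MED16 and MED23 were lost when scores were not divided by the gene medians, where these genes scored 1.91, 1.79 and 1.73.

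**Figure D2:**
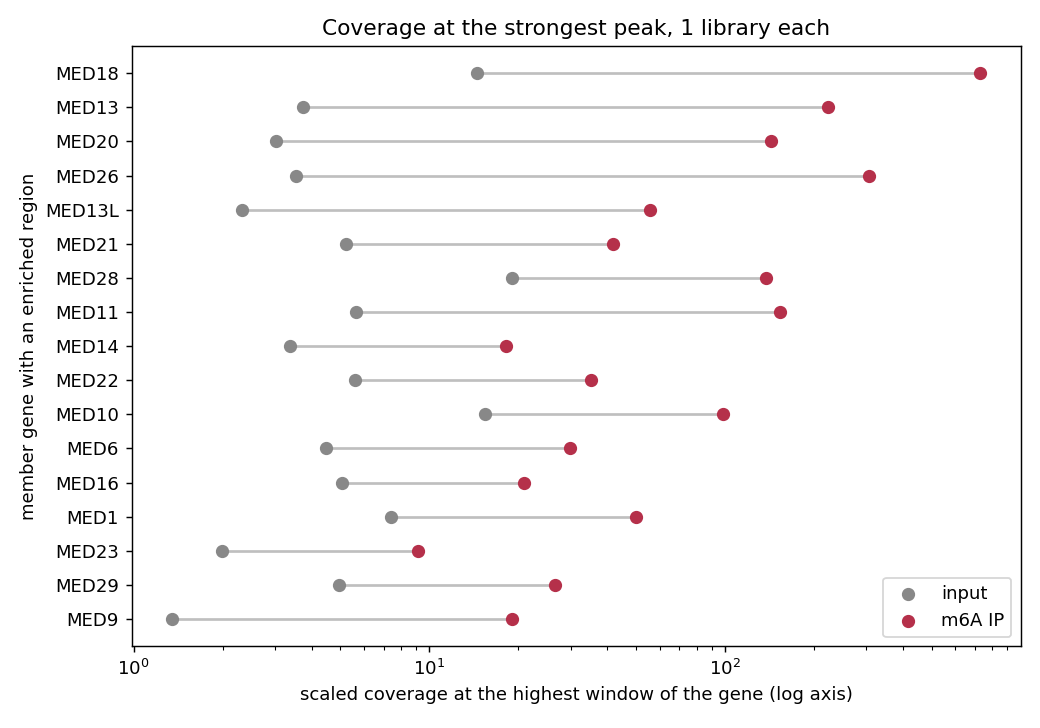
Scaled coverage of input (grey) and IP (red) at the highest-scoring window of the 17 Mediator genes with an enriched region, on a log axis and in order of the window score, with 1 library each. MED18 has 14.5 in the input and 727 in the IP, while MED23 has 1.98 and 9.17 and MED9 1.35 and 19.0.

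The kinase module can switch off the complex or modify its activity. Its measured genes scored from 1.39 to 5.59. MED13 had 4 regions and MED13L had 3. With MED1 and MED26 they were the 4 of 29 members (13.8%) with 2 or more regions, a share near the 15.9% of all measured genes. MED12, which activates the kinase, had none and scored 1.39 over 161 windows in 45 exons, none of them longer than 8 windows. The strongest peak of MED13 had 3.73 in the input and 223 in the IP, a ratio of 59.8 (46.1 to 78.6) and a score of 5.63. IP coverage was higher still in the window beside it, at 468, where the input was 9.43. The strongest peak of MED13L had 2.32 and 55.7, a ratio of 24.0 (17.0 to 34.1) and a score of 4.15.

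MED13 and MED13L are paralogues, and their listings could be compared exon by exon. Exon 1 of both listings is the long terminal exon, of 80 windows in MED13 and 57 in MED13L. Of the 28 exons numbered 2 to 29, 21 had the same number of windows in both genes and 26 were within 1 window of each other. In each gene only exons 15 and 22 among the internal ones had 11 or more windows, and no other measured member had an internal exon that long. Exon 15, of 19 windows in both, was enriched in both, with 10 windows at 2 or more in MED13 and 14 in MED13L. Its mean coverage was 3.22 in the input and 23.5 in the IP for MED13, and 3.84 and 27.1 for MED13L.

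The long terminal exon was enriched in both as well. The peak there had 2.29 in the input and 40.1 in the IP for MED13 (score 3.70) and 7.42 and 64.6 for MED13L (score 3.02). Among exons 2 to 29 the paralogues differed most in highest score at exon 22, of 14 windows in MED13 and 15 in MED13L. In MED13, 12 of its windows were at 2 or more and the mean coverage was 4.93 in the input and 113 in the IP. In MED13L, 1 window was, at 2.22, and the means were 3.10 and 7.77. Smaller differences without an enriched window lay in exon 4, which reached 1.99 in MED13L and -0.38 in MED13, and exon 11, at 0.70 and 1.75. Over all exons the gene-level score of MED13 exceeded that of MED13L by 1.48.

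**Figure D3:**
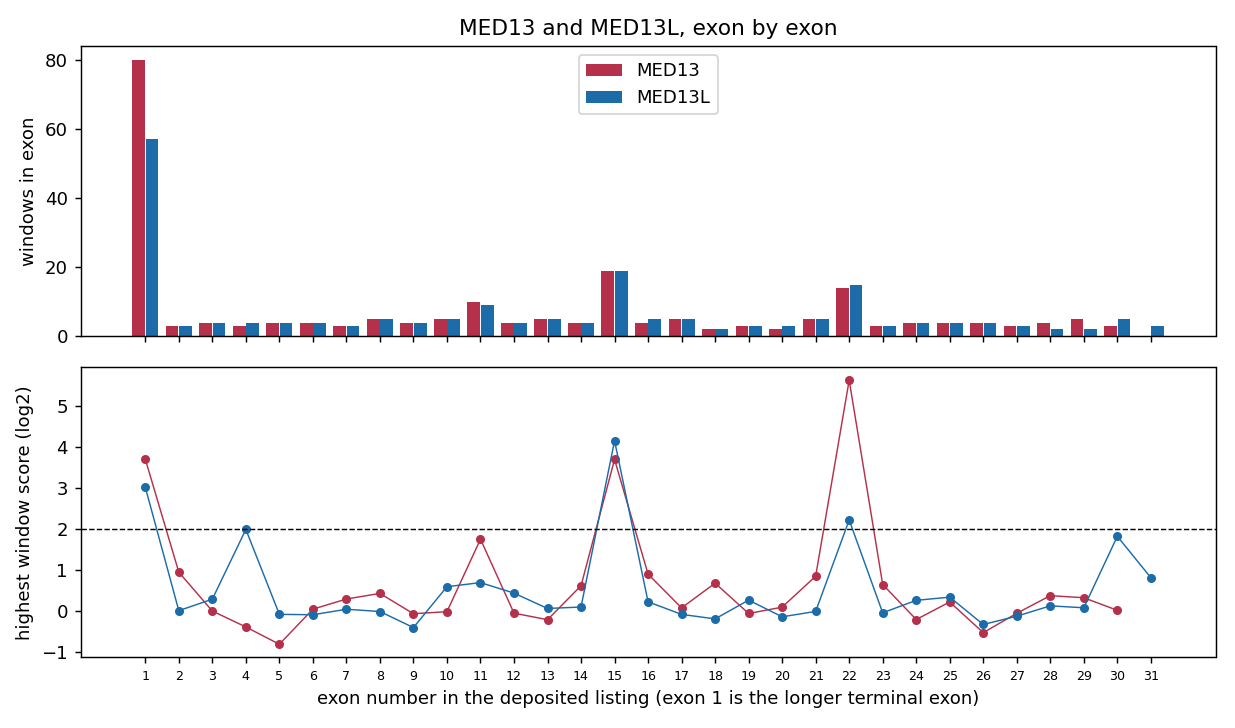
Windows per exon (top) and highest window score per exon (bottom, log2) of MED13 and MED13L by exon number in the deposited listing, where exon 1 is the longer terminal exon; the dashed line marks a score of 2. Both genes have scores over 3 in exons 1 and 15, and exon 22 reaches 5.63 in MED13 and 2.22 in MED13L.

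The other members of the kinase module do not carry MED names and are given for comparison. CDK19, a kinase that can take the place of CDK8, had 3 regions and a gene-level score of 4.31, with 2.56 in the input and 70.9 in the IP at its peak. CDK8 had none and scored 1.52, with 5.61 and 14.3 at its highest window. CCNC, the cyclin that both kinases bind, scored 1.25 on 4 input reads at its highest window. The longest exon of CDK19 had 94 windows, against 10 in CDK8 and 25 in CCNC.

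Enriched windows of the Mediator genes lay in exons of 6 or more windows. Of the 26 regions, 21 peaked in the longer of the 2 terminal exons, or 80.8%, and 5 in internal exons, all of them in MED13 and MED13L. The regions came from 17 genes, with 3 each in 1 exon of MED1 and of MED26. They are not independent of each other, so no interval is given for this share. The longer terminal exon held 43.96% of the windows of measured members. Over all measured genes it held 66.7% of peaks and 45.4% of windows. No exon of fewer than 6 windows held a peak. Among the 970 member windows in exons of up to 5 windows, 0 were enriched, beside 0.149% over all measured genes. Among the 1134 in exons of 6 or more, 11.6% were, beside 9.12% over all measured genes. The same split by exon length was thus seen over all measured genes.

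Long exons did not always carry a region. The largest exon of genes with a region had 9 to 129 windows, with a median of 39, and that of measured genes without one 5 to 30, with a median of 16. MED17, MED4, MED31 and MED15 had exons of 30, 28, 27 and 22 windows and no region. Mean input in these exons was 0.954, 2.93, 1.16 and 12.9 in the same order. These ranges overlap. MED16, whose largest exon had 9 windows, had its region in another exon, the terminal one of 6 windows.

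**Figure D4:**
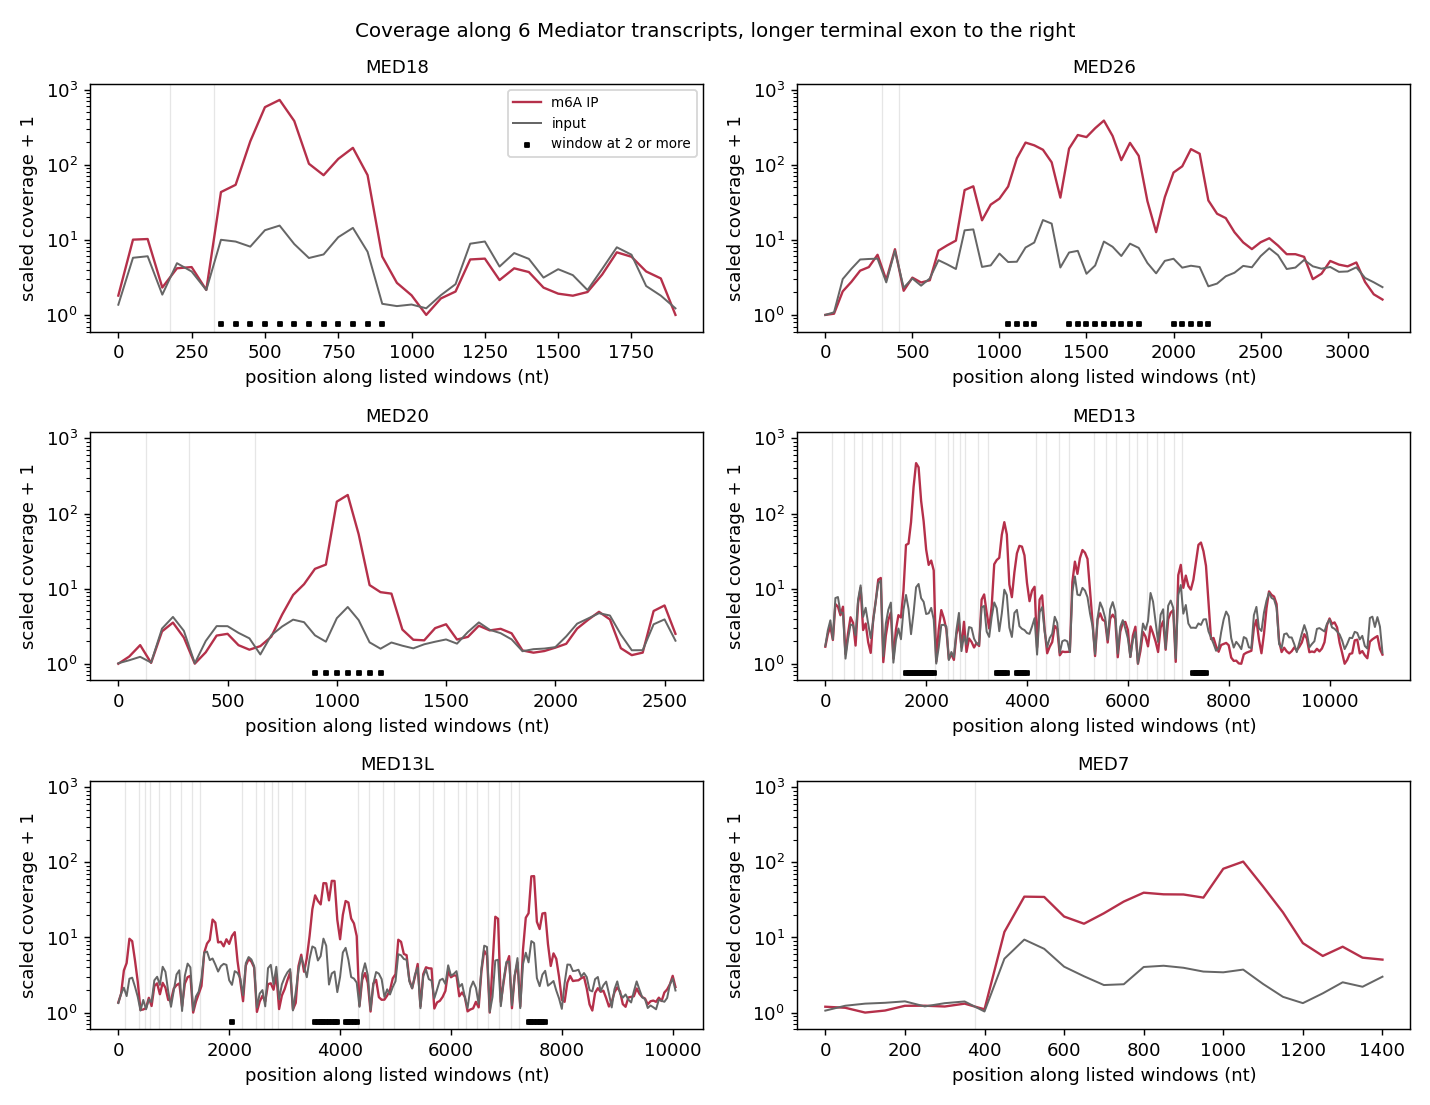
Scaled coverage plus 1 (log axis) of IP (red) and input (grey) along the listed windows of 6 Mediator transcripts, turned so that the longer terminal exon lies to the right; pale lines are exon borders and black squares mark windows at a score of 2 or more. MED18 and MED20 have 1 region near the start of the last exon drawn, MED26 has 3 in that exon, MED13 and MED13L have regions in long internal exons, and MED7 is enriched over most of its terminal exon without a marked window.

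The longer terminal exon is in most cases the 3' end of the transcript. Strands from a RefSeq table on GRCh38 were found for 22 members. Of the 21 with terminal exons of unequal length, 20 had the longer one at the 3' end. All 15 regions in longer terminal exons of genes with a listed strand were at the 3' end, and the other 6 belonged to genes without one. Over all genes with a listed strand the 3' terminal exon was the longer one in 91.2% on the plus strand and 91.0% on the minus strand. The listings do not mark stop codons, so peaks were placed by their distance from the inner edge of the exon, where it adjoins the rest of the transcript.

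These distances were short and alike across most members. In 14 of the 17 genes with a region in the longer terminal exon, the centre of a peak window lay 200 to 350 nt from that edge, a range chosen after the values were seen. They were MED14, MED16 and MED21 at 200 nt, MED6, MED10, MED13L, MED18, MED23 and MED29 at 250 nt, MED11 and MED28 at 300 nt, and MED13, MED20 and MED22 at 350 nt. The exceptions were MED9 at 500 nt, MED26 at 700, 1100 and 1650 nt, and MED1 at 900, 1200 and 2800 nt. Terminal exons of 57 to 80 windows also occurred among the genes within the range, in MED13, MED13L, MED22 and MED29. Short ones occurred too, of 6 windows in MED16, 12 in MED11, 14 in MED10 and 15 in MED6. Their length limits how far from the inner edge a peak can lie, and the region of MED16 was in the 2 outermost windows of its exon. Peaks of all measured genes were most frequent at the same distances, with 521 of 4960 at 250 nt, and 35.3% of them lay within the range. The share of members' peaks, 14 of 21, was set in part by choosing the range on them and is no comparison. The median distance was 300 nt for members and 450 nt for all such peaks.

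**Figure D5:**
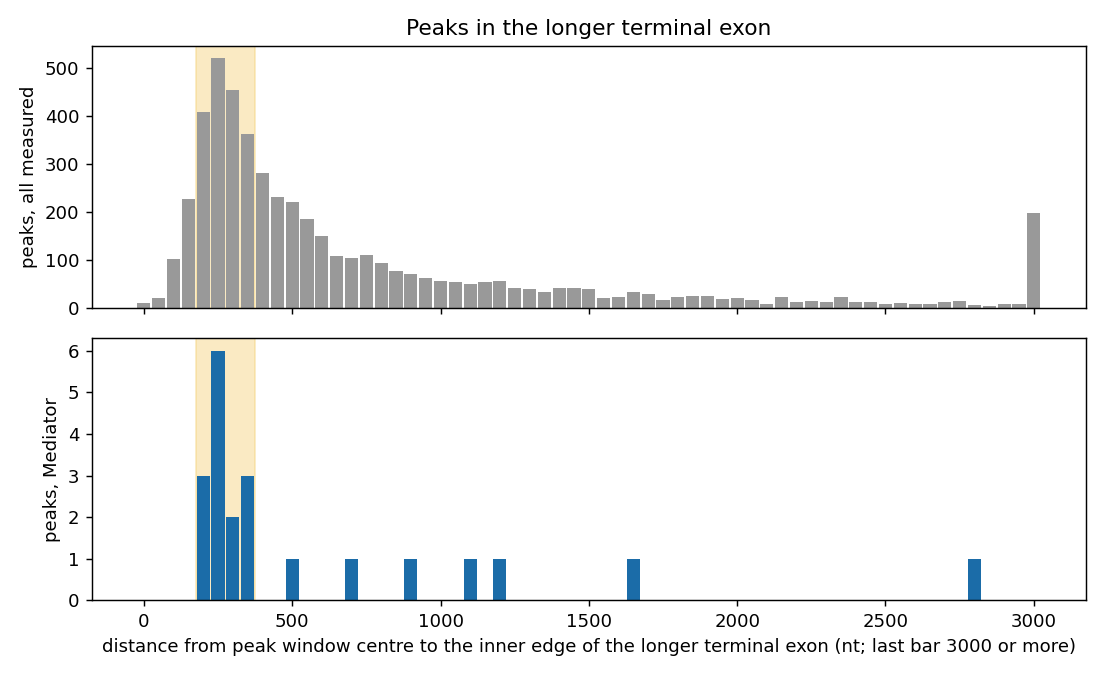
Number of peaks in longer terminal exons by distance (nt) from the peak window's centre to the exon's inner edge, for all measured genes (top) and Mediator genes (bottom); the shaded band is 200 to 350 nt, and the last bar collects 3000 nt or more. Peaks of all measured genes are most frequent within the band, at 250 nt, and the Mediator peaks that it was chosen on number 14 of 21 in it, with MED1 and MED26 making up 6 of the 7 beyond it.

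Some genes are listed with several transcripts, and for MED22 and MED23 the region was present on 1 listing alone. MED22 has a listing of 31 windows without a region, at a gene-level score of 1.43, and the longer listing of 79 windows used here, at 2.51. Their terminal exons have 16 and 69 windows. MED23 has a listing of 107 windows that scored 1.55 with a terminal exon of 7 windows. On the listing of 119 windows, with a terminal exon of 23 windows, it scored 2.21. For MED7, MED8, MED15, MED18, MED24 and MED27 the listings gave the same call.

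The score cannot show enrichment that is shared by a whole gene, so mean IP and input coverage over each gene were compared as well, as log2 ratios with 1 added. The median of members was 0.59 and that of all measured genes 0.35, the latter marking where a typical gene lies on this scale, since the scaling of the libraries is not known. A ratio of 1 or more was found in 10 of 29 members, beside 30.7% of all measured genes, which is a like share. The highest belonged to MED18 (3.60, from a mean of 4.55 in the input to 66.6 in the IP), MED26 (3.46, from 4.41 to 58.4), MED11 (3.18, from 4.10 to 45.1) and MED7 (2.89, from 1.85 to 20.1). These 4 stood at or above percentile 97.7 of measured genes.

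Another 10 members had a ratio below 0, or 34.5%, beside 32.7% of all measured genes. The lowest was MED30 at -0.58, followed by MED17 at -0.34 and MED4 at -0.26. MED14, MED16 and MED23 were also below 0 and had a region by the score divided by the gene medians. In each of them the gene median was lower in the IP than in the input, so this division raised their window scores. Without division by the gene medians, 16 of 29 members had a region, beside 45.5% of all measured genes. MED7 and MED19 were gained and MED14, MED16 and MED23 lost.

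The share of genes with a region depends on transcript length, so members were also set against measured genes of like size. For this, 4 classes of 2689 measured genes each were formed by window number. In the class of shortest transcripts, up to 32 windows, 3 of 6 members had a region (MED10, MED11 and MED28), beside 11.3% of all genes of that class. In the next class 5 of 10 did, beside 36.9%, then 4 of 7, beside 56.1%, and among the longest 5 of 6, beside 72.6%. If each class of members had the share of its class, 12.6 members would have a region, against 17 found. With so few genes per class the intervals are wide, 11.8 to 88.2% in the shortest class, and hold the share of all genes in 3 of the 4 classes.

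Other parts of the transcription machinery were compared through lists of fixed membership. Over all measured genes the share with a region was 44.2% and the median score 1.81, and the share was 36.9% in the size class of 32 to 55 windows. Of 15 genes named for RNA polymerase II subunits 2 had a region, POLR2D with a gene-level score of 2.30 and POLR2J4 with 2.64, the highest. That list goes by name alone, and the POLR2J4 listing, of 137 windows in 16 exons, is unlike that of POLR2J, of 21 in 4. POLR2J4 has near-identical relatives, so its reads may be shared with them and its value is uncertain. The list median was 1.13 and its lowest member was POLR2L, a small shared subunit, at 0.25. Among 17 measured genes of the general factors, including the subunits of TFIIH, 4 had a region and the median was 1.37. GTF2A1, the large subunit of TFIIA, scored 5.87, and CCNH, the cyclin of TFIIH, 0.62. Of 17 measured TAF genes, which encode partners of the TATA-binding protein and some of their relatives, 9 had a region with a median of 2.51. Their median of 60 windows lies in the size class of 55 to 88 windows. In that class 56.1% of all genes had a region and the median score was 2.36. TAF8 scored 4.52 and TAF10 0.32.

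The lists differ in transcript length and depth. Median windows were 52 for Mediator, 60 for TAF genes, 41 for RNA polymerase II and 40 for the general factors. Median input was 3.85, 2.02, 9.01 and 2.79 in the same order. The part of length and depth in the differing counts was not tested.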

How the data were processed

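Coverage and scores were taken from 1 deposited table of 3335372 windows. Per the submitters' processing notes, reads were aligned with TopHat 1.1.3 to hg19. The sources used here do not give the program for window coverage or the gene models. Coverage and gene medians were deposited as a signal already scaled in each library, by a factor that is not stated. Scores are the authors' log2 values, and recomputing them from the coverage differed by at most 1.67e-14.

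Coverage values above 0 were whole multiples of 1 step per library in 100.0% of cases (within 0.01 step). An isolated read gave 37 steps in a window, and reads were counted on that basis. Of 1401 single-exon genes, 670 had exactly their RefSeq length over 50 nt, rounded up, as number of windows, the most frequent outcome. The listing with most windows was kept per gene. Ratio intervals at a peak are exact conditional binomial intervals, and intervals of shares of genes are Clopper-Pearson intervals, at 95%. Region calling was tested on simulated data first. The software was matplotlib 3.10.9, scipy 1.17.1, pandas 2.3.3 and numpy 2.4.6 under Python 3.11.15.

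Every Mediator gene and CDK8, CDK19 and CCNC are named, with the highest and lowest measured gene of each other list. POLR2D is named because its list had only 2 genes with a region. The members, lists and modules were chosen with earlier results of these data known. Alternatives changed the number added, centring, listing, threshold, run length and input minimum. No table of coordinates on hg19 or of transcript sequence was used, so peaks carry no genome positions.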

Additional observations from a re-analysis of the deposited data

How the results depend on the processing

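The number of measured Mediator genes with a region stayed between 15 and 18 when 0.1 was added in place of 1, when scores were not centred, when medians ran over the kept listing, when the listing with the highest score was used and when the input minimum was 0.5 or 2. With the input minimum of 2 the count was 15 of 24 measured members, and in the others it was out of 29. The shares in these settings were 55.2 to 62.5% of members and 42.9 to 51.8% of all measured genes. The number was 25 at a threshold of 1, or 86.2% of members, beside 71.4% of all measured genes. With 0.1 added the shares were 58.6% of members and 51.8% of all measured genes. The number of members with a region was 9 when 5 was added, 7 at a threshold of 3 and 8 when runs of 4 windows were asked for. In those 3 settings the shares over all measured genes were 33.9%, 26.01% and 31.0%, against 31.0%, 24.1% and 27.6% of members, so the members no longer lay above all genes there. Only MED13, MED13L, MED18, MED20, MED26 and MED28 (6 genes) had a region in all 8 alternatives that can change a gene's call. MED4, MED8, MED12L, MED15 and MED30 had none in any. MED7 gained a region when medians ran over the kept listing (score 2.37). When 5 was added, 8 genes lost theirs: MED1, MED6, MED9, MED14, MED16, MED22, MED23 and MED29.

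Regions peaking in the longer terminal exon numbered 11 when 5 was added, 8 at a threshold of 3 and 11 with runs of 4 windows. Those 200 to 350 nt from its inner edge numbered 7, 5 and 6 in the same settings, which were added after the data were seen. Fewer members had a region at all in these settings. The totals of regions are not given for them, so these counts do not show whether the shares changed. The share of member windows enriched was 8.41% with 0.1 added, 3.33% with 5 added, 7.51% without centring, 14.1% at a threshold of 1 and 2.42% at a threshold of 3. The share over all windows of measured genes is not given for these settings, so the values do not set members against other genes. The difference between MED13 and MED13L was 1.86 with 5 added, against 1.48 with 1, and that between CDK19 and CDK8 2.39, against 2.80. At thresholds of 1 and 3 the genes with a region numbered 7 and 0 of 15 for RNA polymerase II. They numbered 10 and 2 of 17 for the general factors and 14 and 5 of 17 for TAF genes. All 3 kinase partners had one at 1. The shares over all measured genes at these thresholds were 71.4% and 26.01%. RNA polymerase II had 1 with 5 added and 0 with runs of 4 windows, beside 33.9% and 31.0% of all measured genes. With an input minimum of 2 the kinase partners had 0 of 2 measured and the general factors 1 of 11, beside 42.9% of all measured genes. Those counts fell because genes with a region, CDK19 and GTF2A1 among them, were no longer measured. The cause of the other shifts was not tested beyond their construction, since a higher threshold, a longer run or a larger added number asks for more signal. No paired analysis was possible because each group has 1 library. Among genes with a region MED9 had the fewest input reads at its peak, 21. The highest windows of MED4 and MED17 held 8 and 17, and those of MED12L and MED30 none.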
